A study of Mus musculus with 8 samples.

Results

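The genes of the GCN2-ATF4 amino acid response were examined in the livers of mice fed a Control or a Low AA diet. The members were 10 genes taken by name for their place in the pathway, Eif2ak4, Atf4, Atf5, Asns, Trib3, Ddit3, Nupr1, Cebpb, Sesn2 and Stc2. Of these, 9 were among the 11784 genes of the deposited table, and Stc2, which encodes the secreted glycoprotein stanniocalcin 2, was not analysed here. The 8 samples were livers of male C57BL/6J mice, 4 on each diet, and no transgene, engineered deletion or drug is described for them. Mice were 9 weeks old when the diets began, ate them for about 4 months and were fasted overnight for approximately 16 hours before sacrifice. Both diets supplied free amino acids in place of protein, and the Low AA diet (TD.140712) held fewer calories from amino acids and more from carbohydrate than the Control diet (TD.140711), with fat nearly equal. Every liver was therefore taken in the fasted state, so no fed liver was available for either diet.

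GCN2, the protein made from Eif2ak4, is a kinase that binds uncharged transfer RNA, which accumulates when an amino acid runs short. It phosphorylates the translation initiation factor eIF2, which slows protein synthesis in general but favors translation of the Atf4 mRNA through upstream open reading frames. ATF4 then acts as a transcription factor, usually paired with a C/EBP protein, on genes for amino acid synthesis, uptake and stress control. The main step of this pathway is thus translational, and mRNA levels of Atf4 itself do not measure it, while the mRNA of its target genes lies downstream. Other kinases of eIF2 respond to other stresses and reach the same targets.

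The sites through which ATF4 and C/EBP proteins act are known as C/EBP-ATF response elements. The letters TGATGNAA, the core of such elements, were searched on both strands of RefSeq promoter windows of GRCm38.p6 that run from 250 bases before to 50 bases after an annotated start. All 10 genes had a window, 12 windows in all. The motif was found in the windows of 3 of the 10 genes, Asns, Trib3 and Nupr1, each with 1 match. It was present in 3.97% of all 32851 windows, and in 233 of the 8500 genes of the deposited table that had a window, or 2.74%. The matches are printed because these 3 genes differ in how their values behaved. Capitals mark the matched letters, positions count from the RefSeq start, and the sequences read 5′ to 3′ along the gene. For Asns (chr6:7693210-7693359, minus strand, bases -150 to -1) the match lay at -23 and read along the gene. For Nupr1 (chr7:126625471-126625620, minus strand, bases -150 to -1) it lay at -110 and read on the opposite strand. For Trib3 (chr2:152344028-152344057, minus strand, bases 4 to 33 after the start) it lay at 15, also on the opposite strand. These RefSeq starts differ from the gene ends given below, which are from GENCODE. The Nupr1 stretch and the Asns match lie inside the GENCODE spans of their genes, and the Trib3 match lies outside its span.
Asns: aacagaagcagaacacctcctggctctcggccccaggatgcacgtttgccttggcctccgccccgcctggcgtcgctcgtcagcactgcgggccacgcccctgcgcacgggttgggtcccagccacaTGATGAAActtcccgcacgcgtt
Nupr1: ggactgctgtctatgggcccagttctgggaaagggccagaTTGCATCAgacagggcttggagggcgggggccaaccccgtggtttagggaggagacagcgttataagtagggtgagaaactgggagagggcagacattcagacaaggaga
Trib3: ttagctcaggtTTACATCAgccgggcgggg
A match describes these letters only, and binding was not measured.

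In the table each gene has a scaled read count per mouse, given as a whole number. How the counts were scaled is not given in the sources used here. Values summed to between 27876664 and 30799385 per mouse after this scaling. Hepatocyte markers were high in every liver, with summed values of the 6 genes Alb, Ttr, Apoa1, Cps1, Tat and Cyp2e1 from 2231096 to 2687925. Control mouse F2212 stood apart. The pancreatic elastase gene Cela1 had a value of 36587 there and 130 to 288 in the other mice, and results that rest on this mouse are given with and without it. In bulk liver, fewer cells of a type and less RNA per cell cannot be told apart.

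None of the 9 genes passed the test between diets. With limma on log2(value + 1) and adjustment over all genes, 0 of 9 had an adjusted p under 0.05, where 0.399% of the 11784 genes tested were called. At an unadjusted p under 0.05 there was 1 of 9, Asns, which was higher in Low AA mice. Of all genes 5.13% were higher and 6.7% lower at that level, 11.8% in either direction. The diets overlapped between their mice in all 9 genes. Over all genes 6.81% had no overlap, too small a share for 0 of 9 to set these genes apart. Of the 9 log2 fold changes 3 were positive and 6 negative, with a median of -0.035, against a median of 0.0023 over all genes.

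**Figure D1:**
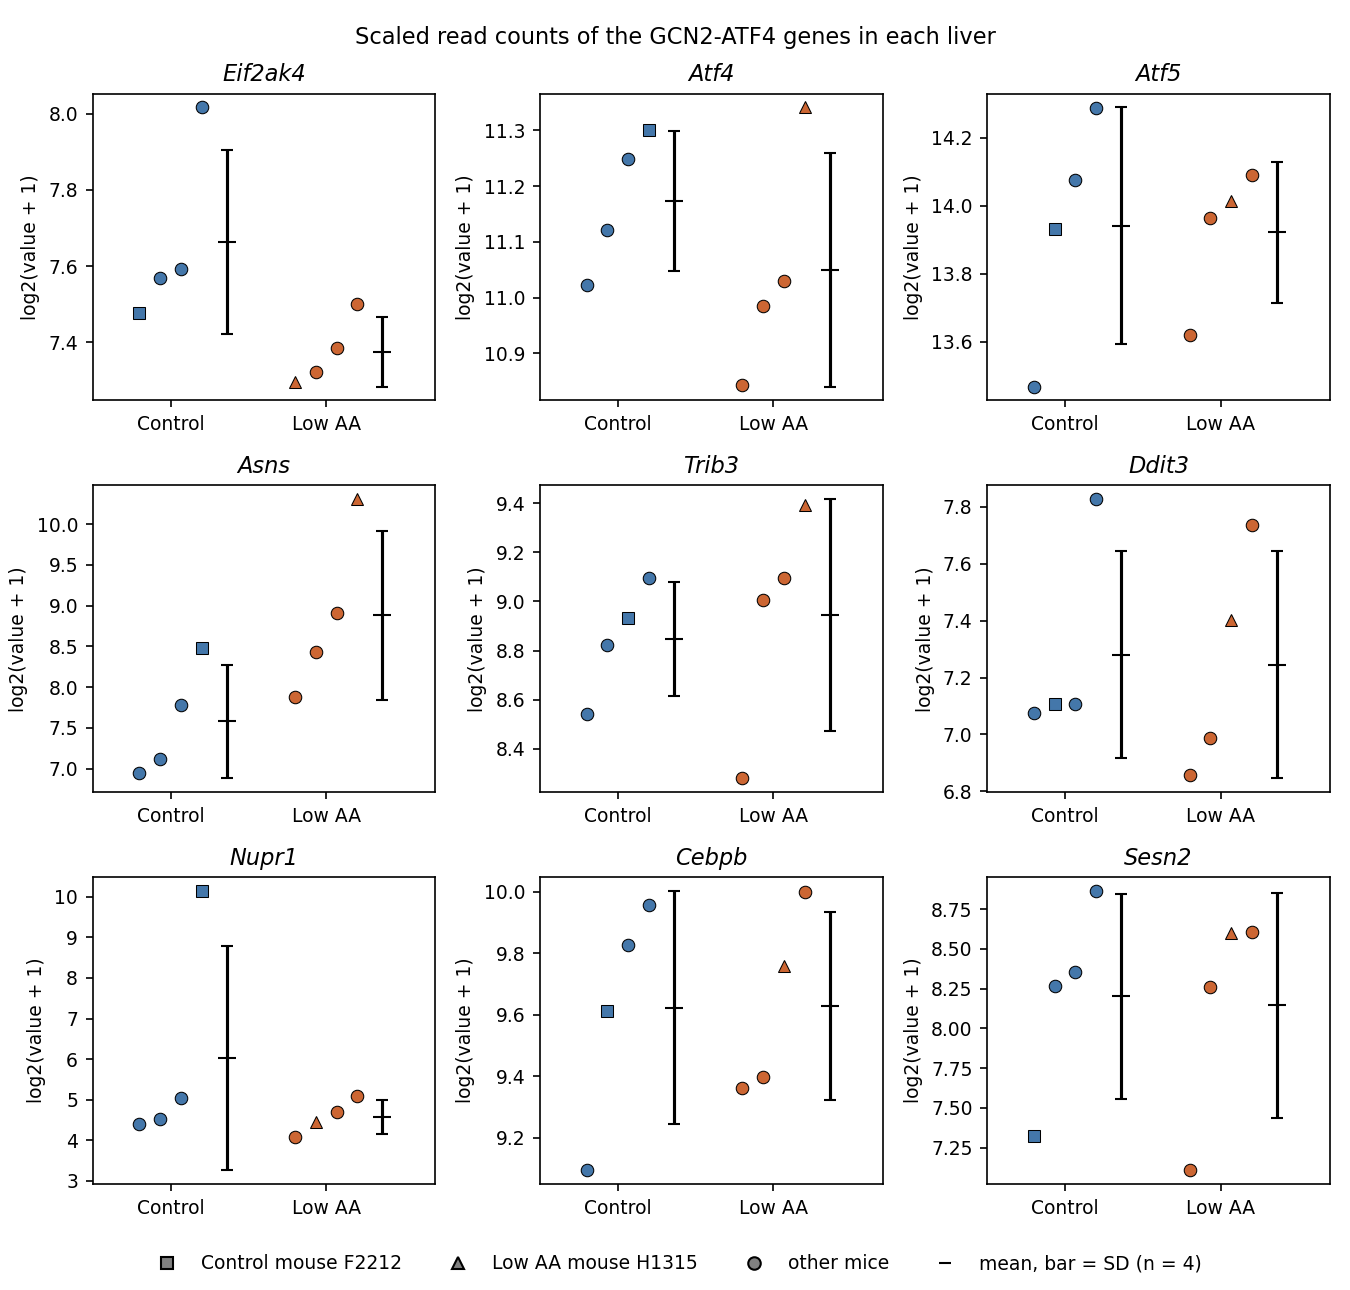
Scaled read counts of the 9 genes as log2(value + 1), 1 point per liver, with the mean and SD (n = 4) of each diet beside the points. Each panel has its own vertical scale. The diets overlap in all 9 panels, Nupr1 is set apart by Control mouse F2212 at 1129, and Asns is highest in Low AA mouse H1315 at 1264.

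**Figure D2:**
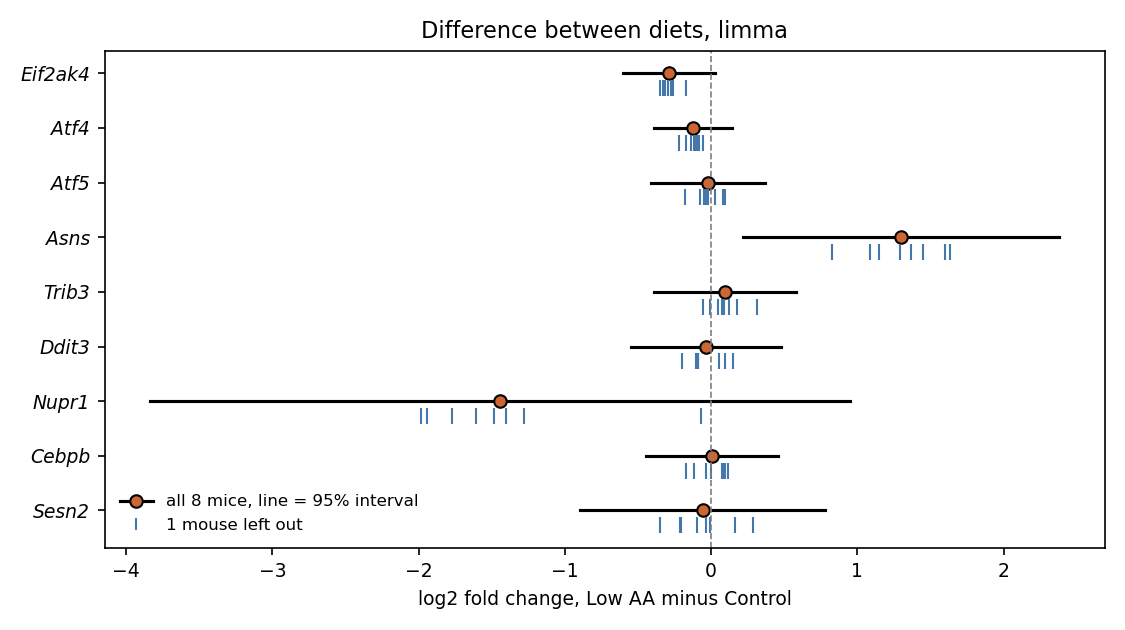
Log2 fold change of each gene, Low AA minus Control, with its 95% interval from limma over all 8 mice, and below it the values when 1 mouse is left out. The interval excludes 0 for Asns alone, before adjustment over genes, and Nupr1 moves from -1.44 to -0.070 without Control mouse F2212.

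The sensor gene Eif2ak4 lies on chromosome 2 (118388618 to 118475234, plus strand). Its values were 192, 177, 258 and 189 in Control mice F129, F2212, F7111 and F2110, and 166, 159, 180 and 156 in Low AA mice H1126, H828, H817 and H1315. Of the 4 Low AA mice, 3 were below every Control mouse, and H817 at 180 was just above F2212 at 177. The Low AA mean was 165 ± 10.7 and the Control mean 204 ± 36.6 (SD, n = 4 each). Low AA minus Control was -0.29 in log2 (standard error 0.14, 95% interval -0.60 to 0.03, limma adjusted p = 0.473). An exact permutation test of this gene alone, two-sided, gave p = 0.0571, where 0.0286 is the smallest that 4 mice against 4 allow. Without either F2212 or H817 the diets no longer overlapped for this gene, at log2 fold changes of -0.35 and -0.33, and without F7111, the highest mouse, the value was -0.17. When 1 mouse is left out, however, between 7.98% and 12.7% of all genes lack overlap.

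Atf4, the transcription factor at the center of the pathway, lies on chromosome 15 (80255184 to 80257541, plus strand). It had values of 2227, 2520, 2078 and 2432 in Control mice F129, F2212, F7111 and F2110, and of 2090, 1837, 2026 and 2593 in Low AA mice H1126, H828, H817 and H1315. Of the 4 Low AA mice, 2 were below every Control mouse and H1315 was above every one. Low AA minus Control was -0.12 in log2 (standard error 0.12, limma adjusted p = 0.768), with a 95% interval from -0.39 to 0.14, or folds of 0.763 to 1.11. A larger rise or fall of the Atf4 mRNA lay outside this interval.

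Atf5, on chromosome 7 (44812256 to 44816658, minus strand), encodes a related factor that is also controlled by translation. Values ranged from 11329 to 20013 in Control mice and from 12580 to 17439 in Low AA mice, so that the Low AA mice fell within the range of the Control mice. For Atf5 the difference in log2 was -0.020 (standard error 0.17, 95% interval -0.41 to 0.37, limma adjusted p = 0.983). The gene overlaps Nup62 and Il4i1 on the opposite strand, and whether reads were counted by strand is not given in the sources used here.

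Ddit3 encodes CHOP, a factor that is induced with ATF4 under strong or lasting stress, and lies on chromosome 10 (127290774 to 127296288, plus strand). Its values were 226, 137, 137 and 134 in Control mice F129, F2212, F7111 and F2110, and 115, 126, 212 and 168 in Low AA mice H1126, H828, H817 and H1315. In Control mice 3 values were almost equal and F129 was high, while the Low AA mice spread on both sides of them. For Ddit3 the difference in log2 was -0.035 (standard error 0.23, 95% interval -0.55 to 0.48, limma adjusted p = 0.976). Ddit3 overlaps Mars, the methionyl-tRNA synthetase gene, and Gm4189 on the opposite strand. The annotation also holds another protein-coding entry named Ddit3 that overlaps it on the same strand. Which entry the values cover is not given in the sources used here.

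Cebpb, on chromosome 2 (167688915 to 167690418, plus strand), encodes a C/EBP partner of ATF4 that also serves fasting and acute-phase responses in liver. It ran from 546 to 992 in Control mice and from 657 to 1022 in Low AA mice. The Low AA mean was 804 ± 173 and the Control mean 807 ± 194 (SD, n = 4 each). On the log2 scale the sign was the opposite, with Low AA minus Control at 0.0058 (standard error 0.20, 95% interval -0.44 to 0.46, limma adjusted p = 0.996). Cebpb overlaps Tmem189 on the opposite strand.

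Among the 9 genes Asns showed the largest positive difference. It encodes asparagine synthetase, which makes asparagine from aspartate and glutamine and is a standard readout of the amino acid response, and lies on chromosome 6 (7675169 to 7693254, minus strand). Its values were 138, 355, 122 and 219 in Control mice F129, F2212, F7111 and F2110, and 234, 480, 344 and 1264 in Low AA mice H1126, H828, H817 and H1315. All 4 Low AA mice were above 3 of the 4 Control mice, and F2212 lay within the Low AA range, above H1126 and H817. The Low AA mean was 581 ± 467 and the Control mean 209 ± 106 (SD, n = 4 each). Low AA minus Control was 1.30 in log2 (standard error 0.49, 95% interval 0.22 to 2.38, limma unadjusted p = 0.0229, adjusted p = 0.321). That is a fold of 2.46 with an interval of 1.16 to 5.21 on the log2(value + 1) scale. The exact permutation test, two-sided, gave p = 0.0857.

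The difference in Asns rested partly on 1 mouse. Without Low AA mouse H1315 its log2 fold change was 0.83 (limma adjusted p = 0.416). Without Control mouse F2212, the highest Control mouse, it was 1.60 (limma adjusted p = 0.194), with no overlap left between the diets. Without F2212, however, 11.7% of all genes lacked overlap. With both of these mice left out, a choice made after the values were seen, Asns was at 1.12 (standard error 0.30, limma unadjusted p = 0.00476, adjusted p = 0.166). Over the 17 alternatives its log2 fold change stayed positive, from 0.83 to 1.64, and the limma adjusted p ran from 0.166 to 0.504. In H1315, Asns was first of all 11784 genes in the ratio to the next highest mouse, a ratio of 2.63 with 1 added to both values, and 4 genes exceeded 2 by this ratio there.

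Trib3 encodes a pseudokinase that binds ATF4 and AKT and feeds back on the response, and lies on chromosome 2 (152337422 to 152344032, minus strand). Its values were 546, 487, 372 and 452 in Control mice F129, F2212, F7111 and F2110, and 546, 513, 310 and 671 in Low AA mice H1126, H828, H817 and H1315. The Low AA diet held both the lowest and the highest mouse. For Trib3 the difference in log2 was 0.095 (standard error 0.22, 95% interval -0.39 to 0.58, limma adjusted p = 0.915).

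Sesn2, on chromosome 4 (132492032 to 132510501, minus strand), encodes Sestrin2, a leucine-binding inhibitor of mTORC1 signaling that ATF4 induces. It had values of 465, 159, 326 and 307 in Control mice F129, F2212, F7111 and F2110, and of 389, 306, 137 and 387 in Low AA mice H1126, H828, H817 and H1315. In each diet 1 mouse was low, F2212 and H817, and the other mice lay between 306 and 465. For Sesn2 the difference in log2 was -0.057 (standard error 0.38, limma adjusted p = 0.975), and its 95% interval, from -0.89 to 0.78, spanned folds of 0.538 to 1.72. Sesn2 overlaps Gm12981, which the annotation classes as antisense but places on the same strand as Sesn2.

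Nupr1 encodes a small stress-inducible chromatin protein and lies on chromosome 7 (126623249 to 126630861, minus strand). It was listed at 32, 1129, 20 and 22 in Control mice F129, F2212, F7111 and F2110, and at 33, 16, 25 and 21 in Low AA mice H1126, H828, H817 and H1315. All livers but F2212 were low and close together, and F2212 was far above them. Every gene in the table reached 28 in at least 3 mice, and Nupr1 did so only in F2212, F129 and H1126. Nupr1 thus lay near the floor of the table. Whether it was kept only through F2212 cannot be told, since the filter on low genes is not given. Low AA minus Control was -1.44 in log2 (standard error 1.08, 95% interval -3.83 to 0.95, limma adjusted p = 0.678). Leaving out F2212 brought it to -0.070 (standard error 0.31, limma adjusted p = 0.958).

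In F2212, Nupr1 was at rank 3 of all genes by the ratio to the next highest mouse, at 33.2, with 1 added to both values. Only 4 genes exceeded 10 by this ratio there, and the others, named after their values were seen, were Cela1 and the acute-phase genes Saa2 and Saa1. Saa2 was listed at 32724 in F2212 and at 21 to 503 in the other mice, and Saa1 at 57733 and at 68 to 2818. Cela1 was the only 1 of 6 pancreas markers in the table, so that the defining acinar genes Cpa1, Cpb1, Prss2, Pnlip and Ctrb1 gave no value. The summed blood markers, 4 of 5 in the table, were 27464 in F2212 and 7206 to 16902 in the other mice. Macrophage markers summed to 9965 there and to 6722 to 10097 elsewhere, and stellate markers to 7509, the lowest of the 8 mice, against at most 9777. Endothelial markers summed to 6055 in F2212 and to 4949 to 7142 in the other mice. The contractile genes Acta2 and Myl9, in no marker list and named after their values were seen, were high in F2212. They were at 406 and 204 there, against 24 to 119 and 27 to 65 elsewhere. The part of other cells or of an acute-phase state in the Nupr1 value was not tested.

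Levels of the 9 genes differed far more between genes than between diets. Per kilobase of annotated exon, over all transcripts of the gene, the median scaled read count of the 8 mice was 8160 for Atf5, 915 for Atf4, 548 for Cebpb and 235 for Trib3. It was 106 for Asns, 91.1 for Sesn2, 80.0 for Ddit3, 23.9 for Eif2ak4 and 9.35 for Nupr1. The ranges over mice of Atf5, Atf4, Cebpb and Trib3 did not overlap one another. Those of Asns, Sesn2 and Ddit3 did, from 44.6 to 462 per kilobase for Asns, 39.4 to 134 for Sesn2 and 67.1 to 132 for Ddit3, and that of Asns also covered Trib3. Nupr1 ran from 6.36 to 449 per kilobase, with the upper end in F2212, and Eif2ak4 from 20.9 to 34.6. In mean value Atf5 was above 98.1% of the genes in the table, while Eif2ak4 was above 28.7%.

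The genes also varied unequally among mice of the same diet. The within-diet SD on the log2 scale was 1.97 for Nupr1, 0.89 for Asns and 0.68 for Sesn2, larger than that of 99.9%, 99.0% and 97.5% of all genes. Without F2212 it was 0.39 for Nupr1, 0.85 for Asns and 0.59 for Sesn2, larger than that of 89.1%, 99.1% and 96.9% of all genes, so the wide spread of Nupr1 rested on that mouse. For the factor Atf4 and the sensor Eif2ak4 it was 0.17 and 0.18, larger than that of 33.6% and 37.1% of all genes. The median over the 9 genes was 0.37, against 0.22 over all genes, and without F2212 it was 0.39 against 0.20. Asns and Sesn2 were the genes with the widest spread without F2212, and Eif2ak4 and Atf4 those with the narrowest, with and without it.

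It was next asked whether the genes rose and fell together from mouse to mouse. The highest of the 8 mice was H1315 for Atf4, Asns and Trib3, and F129 for Atf5, Ddit3 and Sesn2. These mice were the highest for 9.82% and 10.9% of all genes. Control mouse F7111 was the highest for Eif2ak4 and the lowest for 3 of the other genes, and it was the highest for 18.1% of all genes.

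**Figure D3:**
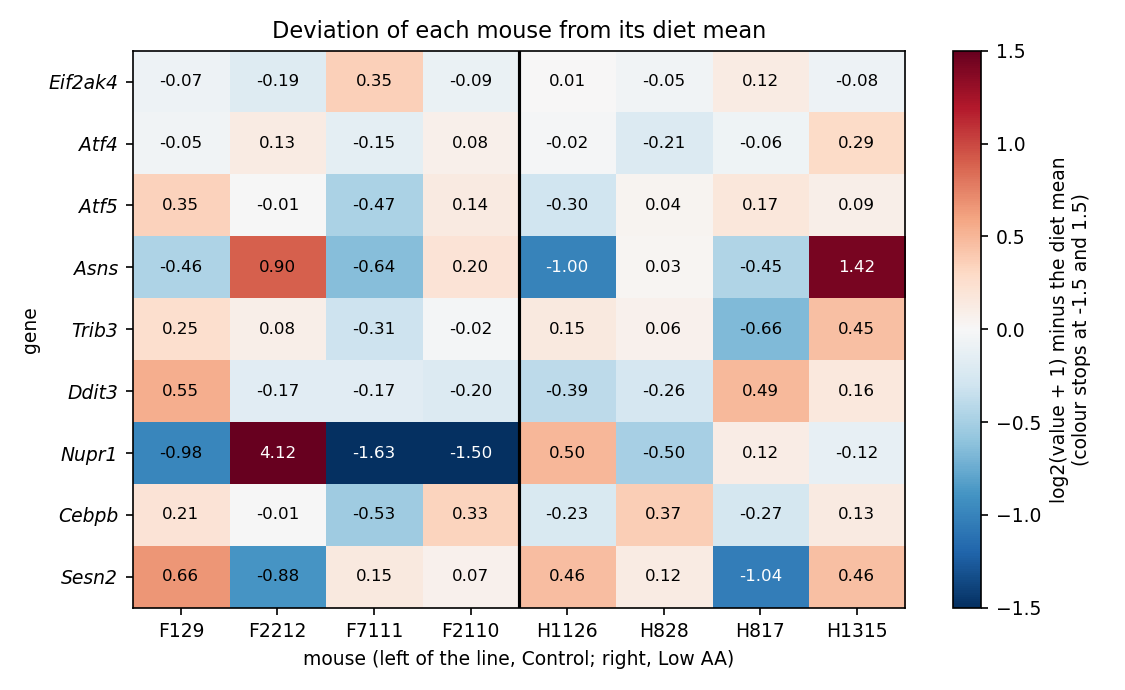
Log2(value + 1) of each gene and mouse minus the mean of its diet, with the number in each cell. No mouse is high or low in all 9 genes: H1315 is 1.42 above its diet mean in Asns, 0.45 above in Trib3 and 0.29 above in Atf4, but 0.08 below in Eif2ak4 and 0.12 below in Nupr1.

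After the diet means were removed, the 36 pairs among the 9 genes had a median Pearson r of 0.026, from -0.787 to 0.770, over 8 mice. Of these pairs 22, or 61.1%, had a positive r, against 50.1% of all pairs of genes in the table, and 2 pairs, or 5.56%, exceeded 0.7, against 7.25% of all pairs. These values share the mice and whatever scaling was applied to the counts. By an exact permutation test within diets, two-sided, 1 of the 36 pairs had a p under 0.05 and none passed Benjamini-Hochberg adjustment over the pairs, the smallest adjusted p being 0.5. That pair was Eif2ak4 and Trib3, with r = -0.639 (exact permutation p = 0.0226) and rho = -0.476 (exact permutation p = 0.22, adjusted 0.992). Without F7111 and H817, the mice whose deviation from the diet mean of Eif2ak4 was farthest from the median deviation, r was -0.144, so the relation rested on those mice.

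The highest r was that of Atf4 and Asns, at 0.770 (exact permutation p = 0.0712, adjusted p = 0.5), with rho = 0.595 (exact permutation p = 0.177, adjusted 0.992). Without H1315 and H828, chosen in the same way by their deviations for Atf4, it was 0.847. With the diet means left in, the same pair had r = 0.297 (exact permutation p = 0.483), with Atf4 at -0.12 and Asns at 1.30 between diets in log2. The lowest r was that of Eif2ak4 and Cebpb, at -0.787 (exact permutation p = 0.0503, adjusted p = 0.5), with rho = -0.595 (exact permutation p = 0.142, adjusted 0.992). Without F7111 and H817 that r was -0.052. Asns and Eif2ak4 also ran in opposite directions, with r = -0.580 (exact permutation p = 0.0799, adjusted p = 0.5) and rho = -0.762 (exact permutation p = 0.0174, adjusted 0.406). For Asns and Eif2ak4, r was -0.865 without F7111 and H817. The targets Asns and Trib3 had r = 0.474 (exact permutation p = 0.356, adjusted p = 0.757) and rho = 0.238 (exact permutation p = 0.642, adjusted 0.993). Without H1315 and F2212 that r was -0.021. Trib3 and Sesn2 had r = 0.670 (exact permutation p = 0.111, adjusted p = 0.5) and rho = 0.714 (exact permutation p = 0.0903, adjusted 0.875), and r was 0.403 without H817 and F7111.

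Outside the 9 genes, the genes most like Asns over the 8 mice were Hfe2, Mcrs1, Coq6, Eif3h and Rpl14. They were ranked by Pearson r on log2(value + 1) with the diet means left in, a description of the values that chose them. Hfe2, which encodes the iron regulator hemojuvelin, had r = 0.981 and rho = 0.952, and r was 0.952 without H1315. The other r values ran from 0.925 to 0.954. Each of these genes moved over a narrow range, Hfe2 from 2434 to 3636, while Asns covered 10.4 times from its lowest to its highest mouse. The 5 genes most like the mean standardised value of the 9 genes were 1700019E19Rik, Fam203a, Grhpr, B3gnt1 and 1810043H04Rik, with r from 0.948 to 0.975. Grhpr encodes glyoxylate reductase, and none of these 10 genes passed limma, with the smallest adjusted p at 0.480 for Rpl14.

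The wider pathway was described by 7 lists of other genes, of which 73 of 79 were in the table. None of the 73 passed an adjusted p under 0.05 in limma, while at an unadjusted p under 0.05 there were 5 higher and 6 lower in Low AA mice, 15.1% together against 11.8% of all genes. Their median log2 fold change was 0.021, and each of the 7 lists had members on both sides of 0.

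**Figure D4:**
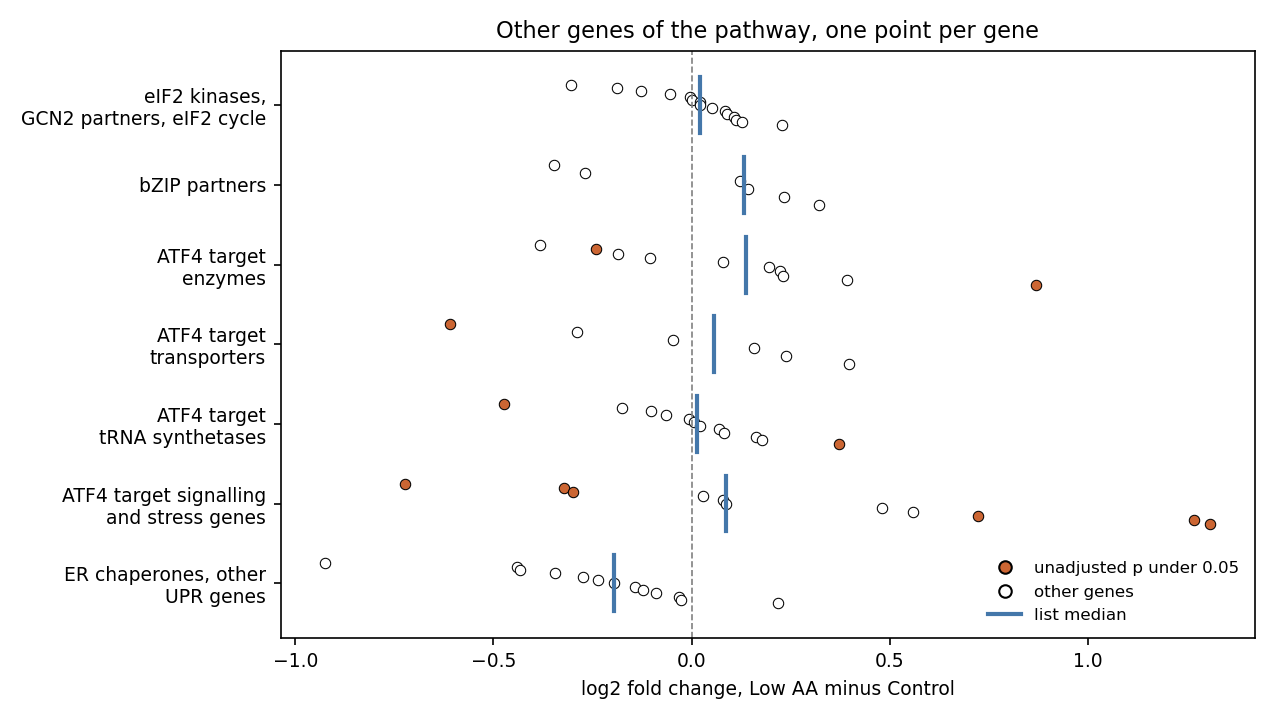
Log2 fold change, Low AA minus Control, of the 73 genes in 7 lists, 1 point per gene, filled where the unadjusted limma p is under 0.05, with the median of each list as a bar. Points of the ATF4 target lists lie on both sides of 0, and 12 of the 13 genes of the lowest row are below it.

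All 15 genes for the eIF2 kinases, the GCN2 partners and the eIF2 cycle were in the table, and 0 of 15 had an unadjusted p under 0.05 in limma. Their median log2 fold change was 0.023. The smallest p belonged to Eif2ak2, the kinase PKR that responds to double-stranded RNA, at -0.30 (limma adjusted p = 0.52), and to Eif2b3, a subunit of the exchange factor of eIF2, at 0.23 (limma adjusted p = 0.54). Of the 6 bZIP partners, 0 passed at that level, with Cebpa at -0.35 (limma adjusted p = 0.521) and Jdp2 at 0.32 (limma adjusted p = 0.63).

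The ATF4 target enzymes, 10 of 14 in the table, had a median log2 fold change of 0.14. Psat1, which makes phosphoserine, was at 12, 45, 20 and 18 in Control mice F129, F2212, F7111 and F2110, and at 41, 44, 26 and 51 in Low AA mice H1126, H828, H817 and H1315. As for Asns, F2212 was within the Low AA range and H1315 was the highest mouse. For Psat1 the difference in log2 was 0.87 (standard error 0.38, limma adjusted p = 0.409). Shmt2, the mitochondrial serine hydroxymethyltransferase, went the other way, at -0.24 (standard error 0.11, limma adjusted p = 0.409).

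Among the amino acid transporters, 6 of 7 in the table, the median was 0.056. Slc38a2, the glutamine and alanine transporter SNAT2, was at 0.40 (limma adjusted p = 0.651) and Slc6a9, a glycine transporter, at -0.61 (limma adjusted p = 0.322). The 12 tRNA synthetases had a median of 0.014. Tars, for threonine, was higher in every Low AA mouse than in every Control mouse, at 0.37 (limma adjusted p = 0.209), and Cars, for cysteine, was lower in every one, at -0.47 (limma adjusted p = 0.22). Of all genes, 3.26% lay above and 3.55% below without overlap.

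The 11 signalling and stress genes that were in the table had a median of 0.088. Of them 6, or 54.5%, had an unadjusted p under 0.05 in limma, 3 in each direction, against 11.8% of all genes. The lists were chosen with earlier results of these data known. Vldlr, which encodes the very low density lipoprotein receptor, had values of 52, 79, 44 and 46 in Control mice F129, F2212, F7111 and F2110, and of 180, 172, 104 and 102 in Low AA mice H1126, H828, H817 and H1315. The diets did not overlap, and 3.26% of all genes likewise lay above without overlap. Low AA minus Control was 1.31 in log2 (standard error 0.26, limma adjusted p = 0.0711). Leaving out F2212, the highest Control mouse for this gene, Vldlr passed, at 1.49 (limma adjusted p = 0.0323). Calls over all genes also rose then, from 47 to 77. With any other single mouse left out, Vldlr did not pass, at limma adjusted p from 0.0703 to 0.179. In contrast to Asns, H1315 was the lowest of the Low AA mice for Vldlr. Eif4ebp1, a translational repressor that ATF4 induces, was at -0.32 (limma adjusted p = 0.347).

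The endoplasmic reticulum chaperones and other unfolded protein response genes, 13 of 13 in the table, had a median log2 fold change of -0.20, with 12 negative and 1 positive. Over all genes the median was 0.0023, and 5829 of 11784 were negative. Hspa5, Hsp90b1, Manf, Pdia4, Sdf2l1, Creld2 and Dnajb9 were all highest in Control mouse F129 and lowest in Low AA mouse H1126. The 12 signs are therefore not separate observations. None had an unadjusted p under 0.05 in limma. The smallest p belonged to Sdf2l1, at -0.93 (standard error 0.51, limma adjusted p = 0.533), with 87 to 303 in Low AA mice and 132 to 652 in Control mice, and to Atf6 among the positive ones, at 0.22 (limma adjusted p = 0.607).

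Genes with and without the promoter motif were also set side by side. Of the members and list genes with a window, 18 held TGATGNAA, among them Asns, Trib3, Nupr1, Vldlr, Tars and Jdp2, and 49 did not. The median log2 fold change was 0.089 with the motif and -0.027 without it, and 3 of 18 against 7 of 49 had an unadjusted p under 0.05 in limma. Over the whole table, 12.4% of the 233 genes with the motif and 11.4% of the 8267 genes without it had such a p. Within the 3 genes whose promoter sequences are shown, Asns was at 1.30, Trib3 at 0.095 and Nupr1, without F2212, at -0.070 in log2.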

How the data were processed

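Stranded poly(A) libraries of 8 livers were analysed from 1 table. For each gene and mouse the authors deposited a signal, a scaled and rounded read count, beside their fold change, a score, and their FDR, a q-value, which were not used. The submitters' processing notes name STAR 2.5.0a, RSEM 1.2.6 and the mm10 build, without their roles. The sources used here give neither the annotation nor the filter on low genes, and every gene reached 28 in at least 3 mice. Since the values are not raw counts, limma 3.58.1 in R 4.3.3 was applied to log2(value + 1), with a trend of variance on mean, and p-values were adjusted over 11784 genes by Benjamini and Hochberg, at a threshold of 0.05. The fit was tested on simulated data. Requiring a value of 1 or more in 4 or more mice removed no gene. Fold changes on this scale understate changes of low genes. Positions are from the GENCODE annotation of GRCm38, the assembly also called mm10.

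The members and lists were chosen with earlier results of these data known. Lists were written from general knowledge, and older symbols were matched through RefSeq synonyms. Named were all members, in each list the gene with the smallest p in each direction, the 5 genes most like Asns and the 5 most like the mean of the members, and Cela1. The table held no marker of adipose tissue. Alternatives covered pseudocounts, filters, scalings, moderation, thresholds and each mouse left out. Leaving out F2212 and H1315 together, and F2212 from the within-diet SD, was chosen after the values were seen.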

Additional observations from a re-analysis of the deposited data

Results flagged for a closer look

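The 9 genes and the 14 list genes named by the rule gave 46 groups of 4 mice, each gene within 1 diet. In 3 of them a mouse was far from the rest on the log2 scale, and chance gives about 1 in 20. For Nupr1, Control mouse F2212 was at 1129 and the other Control mice at 20 to 32, a gap over range of 0.887. For Ddit3, Control mouse F129 was at 226 and the others at 134 to 137, a gap over range of 0.958, which is large because the others were nearly equal. For Shmt2, Control mouse F2110 was at 4216 and the others at 4945 to 4994, a gap over range of 0.942.

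The same was done for 29 of the other genes named in the text, several of them named because 1 mouse stood out, and 7 of their groups had such a mouse. In Control mouse F2212, Cela1 was at 36587 and at 130 to 178 in the other Control mice, with a gap over range of 0.945. Ddit4 was at 91 in F2212 and at 198 to 206 in the others, with 0.951. In Control mouse F2110, Nr4a1 was at 2802 against 108 to 170, with 0.861, and Atf3 at 173 against 38 to 46, with 0.875. Fam203a was at 93 in Control mouse F7111 and at 124 to 131 in the others, with 0.840. Among Low AA mice, Saa1 was at 68 in H828 and at 549 to 770 in the others, with 0.860, and Apoa1 at 312250 in H1315 and at 244211 to 253402, with 0.850.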

How the results depend on the processing

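No paired analysis was possible because the labels match no Low AA mouse to a Control mouse. None of the 9 genes passed an adjusted p under 0.05 under any of the alternatives, or under 0.10 with all mice, and 1, Asns, did so at an unadjusted p under 0.05. Eif2ak4, Atf4 and Asns kept their direction throughout. Nupr1 was below 0 in each alternative it was tested in, but at -1.44 with all mice, -0.070 (standard error 0.31) without F2212 and -0.028 (standard error 0.34) without both F2212 and H1315. With 1 mouse left out, log2 fold changes ran from -0.18 to 0.096 for Atf5, -0.054 to 0.32 for Trib3, -0.20 to 0.15 for Ddit3, -0.17 to 0.12 for Cebpb and -0.35 to 0.29 for Sesn2, so that their signs depended on single mice. Without both F2212 and H1315, Sesn2 was at -0.50, Trib3 at -0.027 and Cebpb at -0.041. Members without overlap numbered 0 to 2 with 1 mouse left out. Of the other genes of the pathway, 0 to 1 passed with 1 mouse left out, and 1, Vldlr, passed without both F2212 and H1315. Over all genes the 47 calls became 19 among the 8000 genes with the highest mean, 30 without a mean-variance trend, 132 at an adjusted p under 0.10, and 16 to 77 with 1 mouse left out. The cause of these moves was not tested. No pair of members passed adjustment with Spearman's rho, without centring, with another pseudocount or scaling, or with a mouse left out. Raw counts were not analysed here, and with 4 mice per diet the intervals of Nupr1, Asns and Sesn2 are wide.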

Other observations

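Of the 6 bZIP genes of the wider lists in the table, Atf3, Jun and Cebpd were highest in Control mouse F2110. Atf3, a stress-induced partner and target of ATF4, was at 173 in F2110 and at 37 to 61 in the other mice, and Jun at 2096 and at 259 to 959. Cebpd was at 184 there, close to the 177 of H1315. Among the genes that led in F2110, named after their values were seen, were the immediate-early genes Nr4a1, at 2802 against 66 to 225, and Fos, at 189 against 8 to 63. The 9 genes of the response did not stand out in that mouse, which was neither the highest nor the lowest of the 8 for any of them.

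Igfbp1 and Ddit4, listed among the ATF4 targets and also known to respond to fasting and insulin, were named after their values were seen. So were Gadd45a and Sqstm1 of the same list, lower in Low AA mice at -0.72 and -0.30 in log2 (limma adjusted p = 0.376 and 0.422). The target enzyme gene Psph was lower in every Low AA mouse than in every Control mouse, at -0.38 (limma adjusted p = 0.462). Of all genes, 3.26% lay above and 3.55% below without overlap. Ddit4 was higher in every Low AA mouse, at 231 to 335, than in every Control mouse, at 91 to 206, a difference of 0.72 in log2 (standard error 0.25, limma adjusted p = 0.281). Igfbp1 was higher in Low AA mice by 1.27 in log2 (standard error 0.56, limma adjusted p = 0.416), and its Control values of 26532, 4873, 4130 and 19707 fell into a high and a low pair, with the low pair F2212 and F7111 below all Low AA mice at 15810 to 32575.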
